A study of Saccharomyces cerevisiae with 8 samples.

Results

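This report describes the Rap1 peaks in a 42.0-kb span of yeast chromosome XII, 450000 to 492000 in the R64 assembly, which holds the ribosomal DNA (rDNA) as the reference draws it and the 4 ASP3 asparaginase genes beside it. The 8 genes followed were ASP3-1, ASP3-2, ASP3-3, ASP3-4, YLR157C-C, YLR159C-A, YLR162W and RRT15, of 6002 nuclear protein-coding genes. The span held 17 of the 1240 peaks in the 4 peak lists. It was selected on the peaks of the 14 d repeat 2 list, which placed several there, so every value is given as a description and no test was made. The name of the span by its ASP3 genes fits only a part of these peaks. In 3 of the 4 lists every peak of the span lay inside the rRNA genes and none lay at an ASP3 gene.

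Binding of Rap1 was measured by chromatin immunoprecipitation and sequencing (ChIP-seq) at 2 ages of culture, 16 h of growth and 14 d, which is deep in stationary phase, with 2 biological repeats at each time. Each of the 4 Rap1 libraries had an input library, so that 8 libraries were made in all. Cells of strain JDY86 were grown in YPD at 30 degrees, cross-linked with formaldehyde and precipitated with an antibody to Rap1, without separation of quiescent from non-quiescent cells. JDY86 is the MATa parent of a histone mutant library. It lacks the native gene pairs for histones H3 and H4 (hht1-hhf1 replaced by NatMX4, hht2-hhf2 replaced by the synthetic HHTS-HHFS pair with URA3) and carries can1::MFA1pr-HIS3 and the alleles met15Δ0, ura3Δ0, trp1Δ63, leu2Δ0 and his3Δ200, with K2Δ0 as the methods spell it. All 4 Rap1 libraries share this genotype, so the times differ in culture age alone as far as the labels say.

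Rap1 is an essential DNA-binding protein that activates the ribosomal protein genes and many glycolytic genes, binds telomeric repeats, and takes part in silencing. The rDNA is a tandem array in which each unit carries the 35S gene, transcribed by RNA polymerase I into the precursor of the 18S and 25S rRNAs, and the 5S gene, transcribed by RNA polymerase III. Cells hold many more units than the reference assembly, which draws 2, so reads from all the units pile up on those copies. ASP3 encodes the cell-wall L-asparaginase II, an enzyme induced when nitrogen runs short, and its copies lie in a tandem repeat that also carries a variant 5S gene. Reads from identical copies cannot be assigned to one of them, so a peak at one copy may hold reads from another.

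The lists differed in depth before any comparison of the span. They held 87, 480, 109 and 564 peaks in 16 h repeat 1, 16 h repeat 2, 14 d repeat 1 and 14 d repeat 2. Of these, 84, 480, 95 and 564 lay on nuclear chromosomes. The lowest background against which a peak was called, which is the mean read pileup over the genome, was 0.414, 8.87, 1.71 and 11.7 reads in the same order. Between repeats, the ratio of repeat 2 to repeat 1 was 21.4 at 16 h and 6.88 at 14 d. Between times, the ratio of 14 d to 16 h was 4.12 in repeat 1 and 1.32 in repeat 2. Depth and repeat therefore cannot be told apart where a peak appeared in repeat 2 alone. The repeats were separate samples by their labels, and an SD over 2 libraries says little about the spread. The peak names of 14 d repeat 2 hold the word merge. If that list pools both biological repeats and not runs of 1 library, the 14 d lists are not separate samples, and the SDs and within-repeat values at 14 d do not rest on independent cultures. The sources used here do not say which holds.

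The span held 2 peaks in each 16 h list, 4 peaks in 14 d repeat 1 and 9 peaks in 14 d repeat 2. As a share of the nuclear peaks this was 2.38% in 16 h repeat 1 (exact Clopper-Pearson 95% interval 0.290% to 8.34%). It was 0.417% in 16 h repeat 2 (0.0505% to 1.50%), 4.21% in 14 d repeat 1 (1.16% to 10.4%) and 1.60% in 14 d repeat 2 (0.732% to 3.01%). The intervals cover counting error only. They treat each peak as a separate draw, although the paired peaks of the 2 drawn rDNA units are copies. The 14 d repeat 2 count also entered the choice of the span. The bases under peaks differed more than their number, with 643 bp and 836 bp in the 16 h lists against 4524 bp and 17699 bp in the 14 d lists. The 14 d repeat 2 peaks covered 42.1% of the span.

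**Figure D1:**
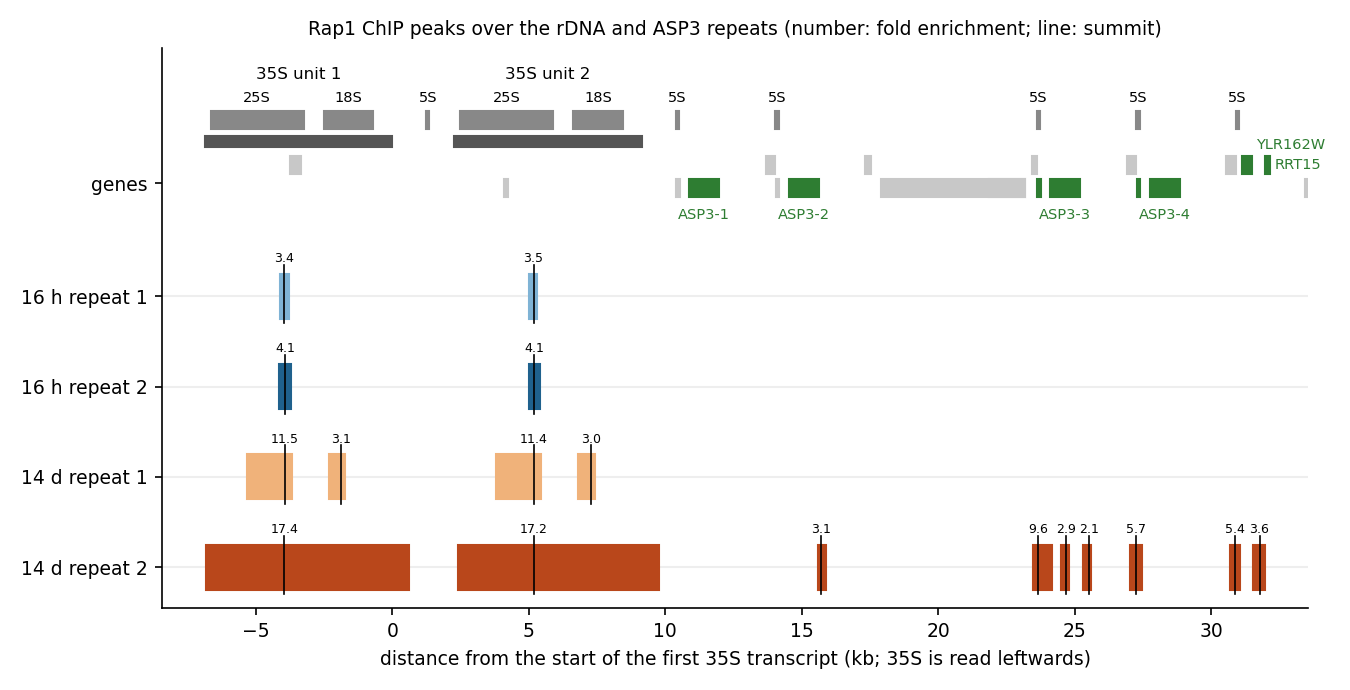
Peaks of the 4 Rap1 lists along the span, with distance in kb from the start of the first 35S gene on the horizontal axis, 1 row for each library, the fold enrichment above each peak and a line at its summit. Genes stand at the top (green, the 8 genes followed; grey, rRNA and other genes), all 4 lists have a peak in each drawn 25S gene, and only the 14 d repeat 2 list has peaks to the right of the 35S units.

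The feature shared by all 4 lists was a peak inside the 25S rRNA gene, in both drawn units. In the first unit, the 35S gene RDN37-1 runs from 458432 down to 451575 and its 25S part, RDN25-1, from 455181 down to 451786. The summit there fell at 454472, 454499, 454484 and 454473 in 16 h repeat 1, 16 h repeat 2, 14 d repeat 1 and 14 d repeat 2. In the second unit, where RDN37-2 spans 460712 to 467569, it fell at 463607, 463628, 463621 and 463610. Measured from the start of the 35S gene, the 8 summits lay between 3933 and 3962 bases downstream, within 29 bp of each other. They were 682 to 711 bases past the 5′ end of the 25S gene. The paired summits were 9129 to 9137 bp apart, against the 9137 bp between the drawn units, and the fold enrichment in the first unit was 0.981 to 1.01 times that in the second. The units are copies of each other in the assembly, so the paired peaks are not separate measurements.

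The gene nearest to this summit on the other strand was TAR1, a small protein-coding gene antisense to the 25S rRNA whose product acts in mitochondria. TAR1 spans 454696 to 455070, and the summit of the first unit lay 224, 197, 212 and 223 bp before its start codon in the order of libraries above. In the second unit the summits lay in the 25S gene, 936 to 957 bp before the start codon of YLR154C-G.

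The height of the 25S peak over its local background was larger at 14 d than at 16 h. The fold enrichment, which is the summit pileup over the pileup expected from the input nearby with 1 added to each, was 3.45 and 3.52 for the 2 units in 16 h repeat 1. In 16 h repeat 2 it was 4.13 and 4.09. In 14 d repeat 1 it was 11.5 and 11.4, and in 14 d repeat 2 it was 17.4 and 17.2. Both 14 d libraries lay above both 16 h libraries at this site, and the share of other regions with such an order was not counted. The mean log2 fold enrichment of the units was 1.92 ± 0.17 at 16 h and 3.82 ± 0.42 at 14 d (SD, n = 2 libraries each), a difference of 1.90. Within repeats the 14 d value was 3.29 times the 16 h value in repeat 1 and 4.21 times in repeat 2.

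By fold enrichment, most Rap1 peaks shared by all 4 lists also stood higher at 14 d, with a smaller median difference. Of 44 merged regions with a peak in all 4 lists, 38 had a higher mean log2 fold enrichment at 14 d and the median difference was 0.66. The 25S regions of the first and second units, with 1.91 and 1.89, ranked 4 and 5 of the 44. By repeat they ranked 9 and 10 in repeat 1 and 2 and 3 in repeat 2. Among the 429 regions in both repeat 2 lists they ranked 8 and 9. A second measure set the pileup over the genome's own mean pileup in place of the local background, with nothing added. By it only 11 of the 44 regions were higher at 14 d, with a median log2 difference of -0.52. The 25S regions were higher by 2.68 and 2.67, ranks 1 and 2 of the 44. The 2 measures differ in the background used and in the added 1, which weighs most where the background is low. The part of each in the change of sign was not tested. The measure over the genome mean gave a difference of 3.09 in repeat 1 and 2.27 in repeat 2 for the mean of the units. It also takes in the local background at the 25S site. Set over the genome mean, that background rose 2.72-fold from 16 h to 14 d in repeat 1 and 1.14-fold in repeat 2. The part of this rise in the larger difference was not tested. These ranks describe the span and do not test it, because the 14 d repeat 2 list entered its choice.

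**Figure D2:**
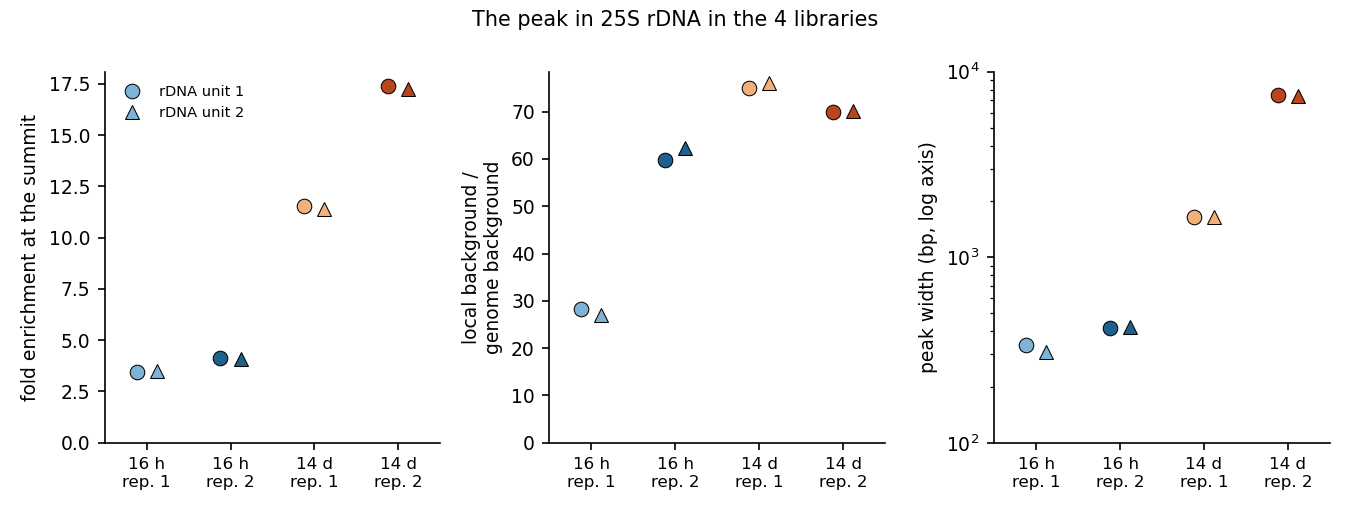
Fold enrichment (left), local background over the genome mean (middle) and width in bp on a log axis (right) of the 25S peak in each library, with a circle for the first drawn unit and a triangle for the second. The 14 d libraries lie above the 16 h libraries in fold enrichment (11.4 to 17.4 against 3.45 to 4.13), in background (69.9 to 76.0 against 27.1 to 62.4) and in width (1649 to 7472 bp against 307 to 419 bp).

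The read pileup under these summits was among the 5 highest of any nuclear peak in all lists but 16 h repeat 1, on a background that was high as well. The summit pileup in the first and second units was 43 and 42 reads in 16 h repeat 1, and 2195 and 2266 reads in 16 h repeat 2. At 14 d it was 1485 and 1488 reads in repeat 1 and 14267 and 14190 reads in repeat 2. The local background was 28.4 and 27.1 times the genome mean in 16 h repeat 1, 59.9 and 62.4 times in 16 h repeat 2, 75.0 and 76.0 times in 14 d repeat 1 and 69.9 and 70.2 times in 14 d repeat 2. The median over all nuclear peaks was 1.29, 1.21, 1.03 and 1.00 times the genome mean. Only a few peaks stood on a background over 10 times the genome mean. There were 9 in 16 h repeat 1 and 3 in 16 h repeat 2. All 4 such peaks of 14 d repeat 1 and all 3 of 14 d repeat 2 lay in the span.

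The rank of the 25S peaks within a list depended on the measure. By fold enrichment they ranked 84 and 83 of 84 in 16 h repeat 1, 380 and 381 of 480 in 16 h repeat 2, 48 and 51 of 95 in 14 d repeat 1, and 144 and 146 of 564 in 14 d repeat 2. By −log10 q, which grows with the number of reads, they ranked 36 and 35, 23 and 20, 4 and 5, and 1 and 2 in the same order. By summit pileup they ranked 16 and 17, 5 and 4, 2 and 1, and 1 and 2. In the shallow 16 h list the peaks were thus at the bottom by enrichment and near the middle by significance. In the deep 14 d list they were in the upper part by enrichment and at the top by significance.

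**Figure D3:**
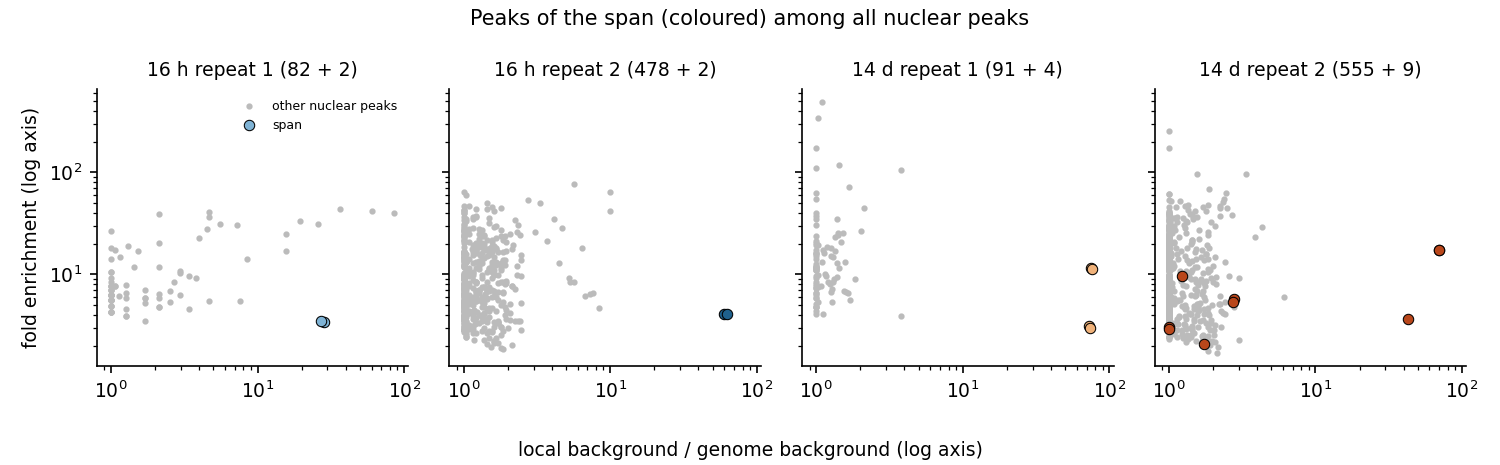
Fold enrichment of each nuclear peak (vertical, log axis) against its local background as a multiple of the genome mean (horizontal, log axis), with 1 panel for each library, peaks of the span in colour and all others in grey. The 25S peaks stand at 27.1 to 76.0 times the genome mean in the 4 libraries, while the medians of the lists lie between 1.00 and 1.29.

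The 25S peak widened with time in both repeats. Its width in the first and second units was 336 and 307 bp in 16 h repeat 1, and 417 and 419 bp in 16 h repeat 2. At 14 d it was 1653 and 1649 bp in repeat 1, and 7472 and 7362 bp in repeat 2. The median widths of the lists were 267, 328, 399 and 459 bp. The regions of both units had the largest mean gains in width among the 44 shared regions, 4493.5 and 4446.0 bp, with 949.5 bp for the next region and a median of 163.5 bp. The width of a called peak depends on depth, and the 14 d libraries were the deeper ones within each repeat. The part of depth in this gain was not tested.

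The widening can be followed along the 35S gene. The peaks of 16 h repeat 1 covered 9.89% and 9.04% of the 25S gene in the 2 units and those of 16 h repeat 2 covered 12.3% in both, with nothing over the 18S gene. In 14 d repeat 1 the peak reached 48.7% and 48.6% of the 25S gene, and most of the gain lay toward its 3′ end. In the same list a separate peak covered 34.2% and 33.7% of the 18S gene, which lies on the 5′ side of the 25S gene. The 18S peaks had a fold enrichment of 3.11 and 3.01, the lowest of the 95 in that list, with summits 1875 and 1865 bases past the 35S start and pileups of 389 and 380 reads.

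In 14 d repeat 2 a single peak in each unit covered the whole 25S and 18S genes and the external transcribed spacer at the 5′ end. It began 630 and 636 bp before the 35S start and ended 16 and 132 bp inside the 3′ end. The covered share of the 35S gene, as a mean of the units for the peak at the 25S site, was 4.69% and 6.10% in the 16 h lists, against 24.1% and 98.9% in the 14 d lists. The 5S genes of the same units, RDN5-1 and RDN5-2, had no peak in any list. In 14 d repeat 2 alone the called interval thus took in nearly all of the 35S gene, and it also ran into the spacer before the 35S start. The peaks of the other lists covered only parts of the 35S gene.

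**Figure D4:**
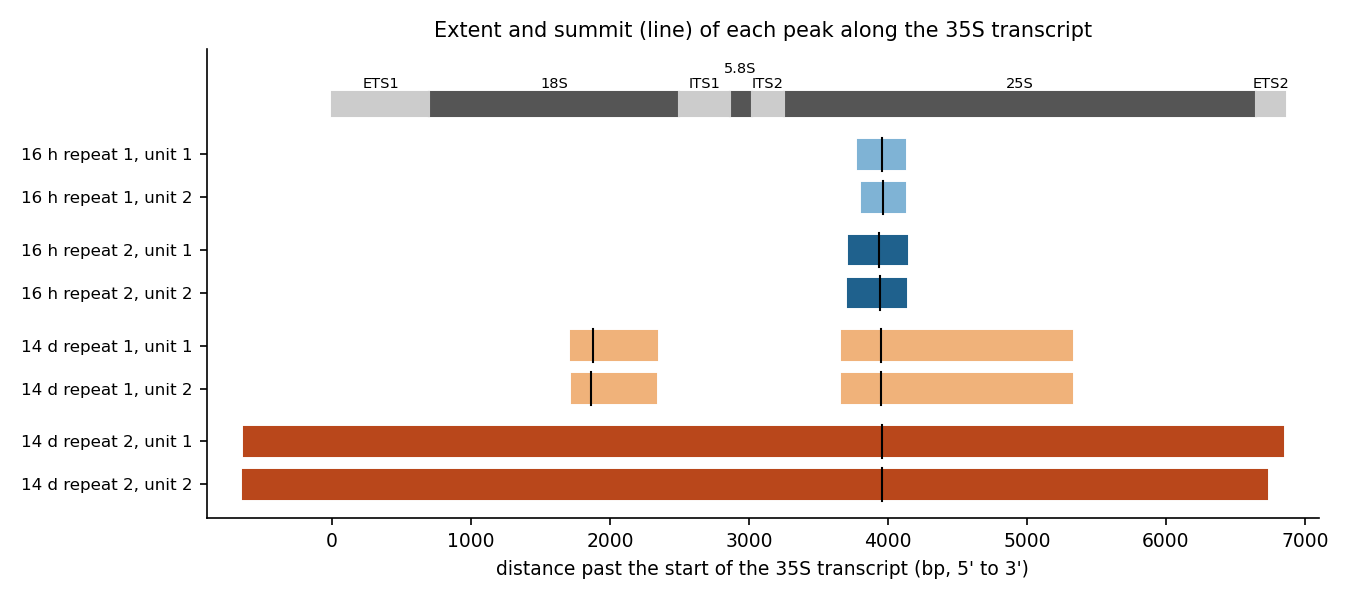
Extent of each rDNA peak along the 35S gene, as distance in bp from the 35S start read 5′ to 3′, with a row for each library and drawn unit, a line at each summit and the parts of the gene on top (ETS and ITS, external and internal transcribed spacers). All summits of the 25S peak fall between 3933 and 3962 bases, while the bars lengthen from 307 to 419 bp at 16 h to 7472 bp in 14 d repeat 2.

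Outside the rRNA genes of the 2 drawn units, peaks appeared in 14 d repeat 2 alone. The 8 genes followed were counted as called where a peak lay over the gene or the 500 bp before its start codon. By this rule 0, 0, 0 and 6 of the 8 were called in 16 h repeat 1, 16 h repeat 2, 14 d repeat 1 and 14 d repeat 2. Over all 6002 nuclear genes the called share was 1.35%, 10.6%, 2.03% and 13.4% in the same order. The choice of the span used the 14 d repeat 2 peaks, so nothing is read from its 6. ASP3-1 and ASP3-4 were not called in any list. In the 3 lists without a called gene, the summit nearest to any of the 8 genes was a 25S or 18S summit of the rDNA, 3613 to 5710 bp from ASP3-1.

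Among the peaks outside the rDNA units, some lay over copies of the 5S gene. The reference draws 6 copies in the span, and the 14 d repeat 2 list had a peak over 3, RDN5-4, RDN5-5 and RDN5-6, each covered in full. RDN5-1, RDN5-2 and RDN5-3 had none. The other 3 lists had no peak over any copy.

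By fold enrichment the peak at RDN5-4 was the highest outside the rDNA units. It spanned 481918 to 482599 with its summit at 482092 and had a fold enrichment of 9.59, a pileup of 147 reads and rank 250 of 564 by fold. Its local background was 1.23 times the genome mean, so it did not share the high background of the 25S peaks. The summit lay 47 bp past the start of RDN5-4 and inside YLR157C-C, a short open reading frame of 132 bp and unknown function, 98 bp past its start codon. The right edge reached 51 bp into the 3′ end of ASP3-3. The peak also covered 72.7% of YLR157W-E, a frame of 165 bp.

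The peak at RDN5-5 spanned 485463 to 485901, with its summit at 485676, 21 bp before the start of that 5S copy. It had a fold enrichment of 5.75, a pileup of 193 reads and a background of 2.79 times the genome mean. It covered the whole of YLR159C-A, the counterpart of YLR157C-C one repeat further along and also of 132 bp, and its summit lay 35 bp past the 3′ end of that frame. The summit lay inside YLR159W, a frame of 345 bp on the other strand, 331 bp past its start codon. This peak was also the nearest to ASP3-4, with its edge 300 bp and its summit 525 bp from the gene.

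The peak at RDN5-6 spanned 489112 to 489503, with its summit at 489319, 30 bp before the start of that copy. It had a fold enrichment of 5.36, a pileup of 177 reads and a background of 2.74 times the genome mean. The summit lay inside YLR161W, a frame of 345 bp, 322 bp past its start codon. It also lay 254 bp before the start codon of YLR162W, an open reading frame of 357 bp and unknown function. YLR162W was called through this peak. The 3 summits thus fell from 30 bp before to 47 bp past the start of a 5S copy.

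Other peaks of like fold enrichment in the same list were compared with the remaining lists. Of 109 other peaks of 14 d repeat 2 with a fold enrichment between 5.36 and 9.59, 93 (85.3%) overlapped a peak in 16 h repeat 2. Only 5 (4.59%) overlapped one in 14 d repeat 1 and 5 (4.59%) one in 16 h repeat 1. Why the 3 peaks were missing from the other lists was not tested.

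The ASP3 genes themselves carried weaker peaks in 14 d repeat 2, at ASP3-2 and ASP3-3. The peak at ASP3-2 spanned 474049 to 474330, with its summit at 474149, 92 bp before the start codon. Its fold enrichment was 3.06, with 38 reads at the summit and a background equal to the genome mean, and it ranked 497 of 564. ASP3-2 runs from 474057 down to 472969, so the peak lay almost wholly in the upstream region and overlapped the gene by 9 bp.

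ASP3-3, from 483637 down to 482549, had a weak peak inside the gene and another upstream. The peak inside the gene spanned 482931 to 483244, with its summit 504 bp past the start codon. It had 36 reads, a fold enrichment of 2.91 and rank 504 of 564. The upstream peak spanned 483726 to 484043, with its summit 328 bp upstream of the start codon. It had 44 reads, a fold enrichment of 2.11 and rank 558 of 564. The summits of ASP3-2 and ASP3-3 thus lay at different places relative to the start codon, 92 bp before it, 504 bp past it and 328 bp before it.

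Most peaks as weak as these were not shared with another list. Of 59 others in 14 d repeat 2 with a fold enrichment between 2.11 and 3.06, 12 (20.3%) overlapped a peak in 16 h repeat 2, 0 in 14 d repeat 1 and 1 (1.69%) in 16 h repeat 1. A lower level of Rap1 at ASP3-2 or ASP3-3 in the other libraries and a lack of depth cannot be told apart from these lists.

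The 4 ASP3 genes are each 1089 bp long. ASP3-1 and ASP3-2 lie 3652 bp apart, as do ASP3-3 and ASP3-4, while ASP3-2 and ASP3-3 lie 9580 bp apart across a Ty1 element. In 14 d repeat 2 the called copies were the ones on either side of the Ty1 element. ASP3-1, the copy nearest to the rDNA, had its nearest summit 3744 bp away. Because the copies share sequence, the placing of a peak at one copy and not at another was not taken as a difference in Rap1 between them.

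**Figure D5:**
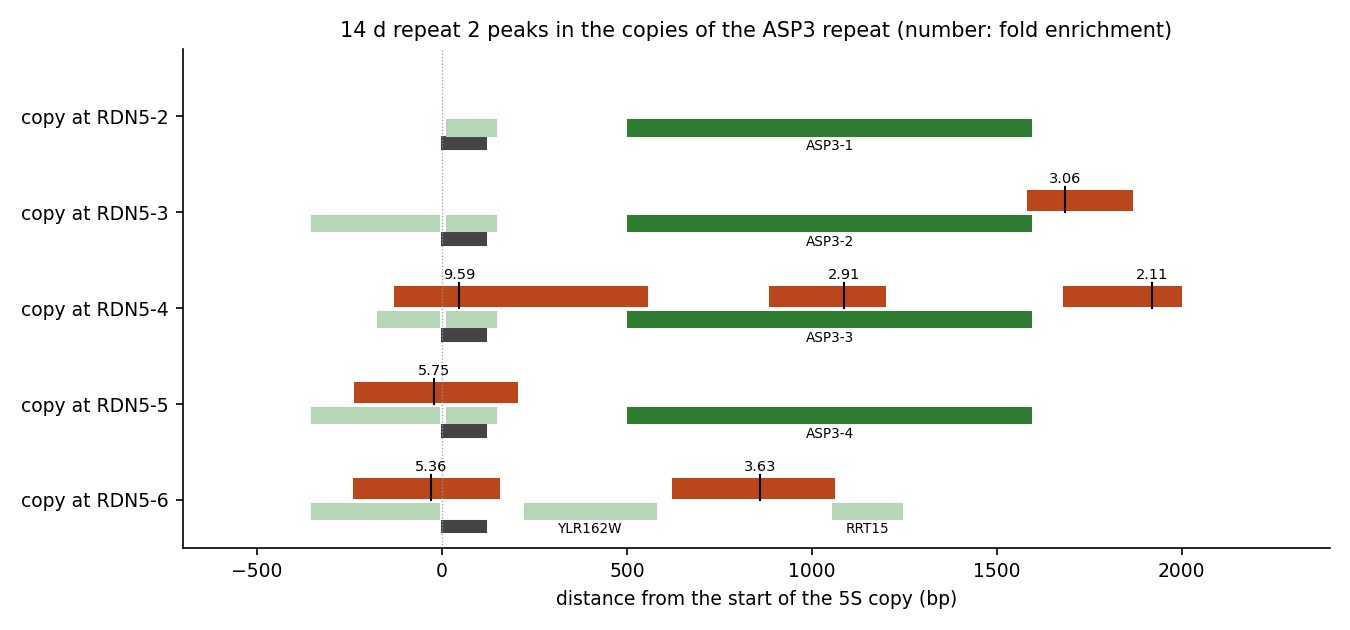
Peaks of 14 d repeat 2 (orange, with fold enrichment and a line at the summit) at the copies of the repeat, each aligned at the start of its 5S gene, with distance from that start in bp on the horizontal axis. The 5S genes are dark bars, ASP3 dark green and other reading frames light green; peaks cover RDN5-4, RDN5-5 and RDN5-6 and touch ASP3-2 and ASP3-3.

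The last peak of the span stood apart from the ASP3 repeat. It lay between YLR162W and RRT15, spanned 489973 to 490410 and had its summit at 490209, 197 bp before the start codon of RRT15 and 280 bp past the end of YLR162W. RRT15 is a frame of 189 bp named after a screen for regulators of rDNA transcription. The fold enrichment was only 3.63, rank 450 of 564. The pileup was 1838 reads, rank 7, and the −log10 q of 452 was rank 68. The local background was 43.1 times the genome mean, the third highest in the list after the 25S peaks, against 1.00 to 2.79 times at the other 6 peaks outside the rDNA units. Whether reads from other rDNA copies account for that background was not tested.

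The span's ends left no peak in doubt. The outermost peaks inside were those of the first 25S site, beginning at 451591 in 14 d repeat 2, and the peak that ended at 490410. The first peaks to the right outside began at 493386 in 16 h repeat 2 (fold enrichment 5.23) and 493327 in 14 d repeat 2 (9.72). To the left they lay in RRN5, which encodes a subunit of the upstream activation factor of RNA polymerase I. They began at 424085, 424079 and 424013, with fold enrichments of 21.6, 17.3 and 28.6, in 16 h repeat 2, 14 d repeat 1 and 14 d repeat 2.

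The background at other repeated loci ranged from near the genome mean to that of the rDNA. The CUP1 genes had no peak. The ENA genes, which encode sodium pumps, had 1 peak in each list at 1.09 to 1.67 times the genome mean. Peaks at the subtelomeric YRF1 helicase genes stood at 1.54 to 5.71 times. Mitochondrial DNA had 3 peaks in 16 h repeat 1 at up to 39.3 times and 14 in 14 d repeat 1 at 50.7 to 92.5 times, and none in the repeat 2 lists. Among all nuclear peaks outside the span, the highest was 85.6 times in 16 h repeat 1, 10.03 times in 16 h repeat 2, and 3.78 and 6.14 times in 14 d repeats 1 and 2.

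Rap1 peaks were also counted at genes related to the members by function. Of 15 genes for asparagine and nitrogen use, 1, 5, 2 and 5 were called in 16 h repeat 1, 16 h repeat 2, 14 d repeat 1 and 14 d repeat 2. Of all 6002 nuclear genes, 1.35%, 10.6%, 2.03% and 13.4% were called in the same order. GAT1, an activator of nitrogen-regulated genes, was called in all 4 lists with a fold enrichment of 6.55, 24.0, 15.1 and 35.7, at a summit 311 to 318 bp before its start codon. AGP1, an amino acid permease gene that takes up asparagine, was called in 3 lists at 13.1, 6.65 and 14.8. ASN1, the gene for an asparagine synthetase, was called in both repeat 2 lists, at 4.22 and 2.43. Nothing is read from GAT1, the only gene of the 15 called in all 4 lists.

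Of 27 genes for rDNA silencing and RNA polymerase I, 0, 4, 1 and 5 were called. RRN5 was called in 3 lists, with its summit inside the gene. RPA34 and RPA43, which encode RNA polymerase I subunits, were called in both repeat 2 lists, RPA34 at 2.82 and 3.30 and RPA43 at 3.85 and 2.83. In 14 d repeat 2, RPA190 was called through the same peak as RPA43. Of 9 RRT genes found in the gene table, 0, 1, 0 and 3 were called. The called shares of all genes are those given above, and nothing particular to these lists is read from the counts.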

How the data were processed

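The peak lists were made by the authors from sequenced ChIP and input libraries. The submitters' processing notes name Trim Galore, Bowtie2 and MACS2 and the R64 assembly, with settings and treatment of multiply aligned reads not given in the sources used here. Each deposited list gives peak and summit positions, the fold enrichment (a ratio of summit pileup to local background), −log10 p and −log10 q of the summit, and a score of 10 times −log10 q. The deposited −log10 q and the score carry the same information, and the score was not analysed further. The word merge stands in the peak names of 14 d repeat 2, which may thus pool sequencing runs or both biological repeats. The 4 input libraries were not analysed here.

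Positions were converted to count from 1. The summit pileup and local background were solved from fold enrichment and −log10 p (Poisson tail, whole-number pileup), which assumes that the ChIP pileup was not scaled. The solution was found for 100% of the peaks within a relative tolerance of 0.0001, and the step was tested on simulated data. The lowest background in a list was used as its genome mean, a measure of relative depth. Peaks of different lists sharing at least 1 bp were merged into regions. A gene was called where a peak overlapped it or the 500 bp before its start codon. Gene positions came from the RefSeq R64 gene table. Exact Clopper-Pearson 95% intervals cover counting error only. Python 3.11.15, numpy 2.4.6, pandas 2.3.3 and scipy 1.17.1 were used.

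The text names all 8 members, any other gene in the span under or nearest to a peak, the rRNA genes and the listed related genes. The members and lists were chosen with earlier results of these data known. Alternatives were a minimum −log10 q, equal-length lists by fold, other overlap and promoter rules, other measures of height, and leaving out each library. No genome sequence was used here, so no sequence is shown and no motif was searched.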

Additional observations from a re-analysis of the deposited data

How the results depend on the processing

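No paired analysis was possible because no test was made, and differences within repeats are given in the report as values only. The mean 14 d minus 16 h difference in the number of peaks in the span was 4.5. It fell to 0 when each list was limited to its 84 peaks of highest fold enrichment, the length of the shortest list, so the gain rests on peaks below that limit. It ranged from 2 without 14 d repeat 2 to 7 without 14 d repeat 1. The difference in covered bases, 10372 bp, ranged from 3784.5 bp without 14 d repeat 2 to 16959.5 bp without 14 d repeat 1. The difference in the median log2 fold enrichment of the span was 0.58 and ranged from 0.46 to 0.70 when libraries were left out. It was 1.90 with peaks weighted by width and turned to -0.97 with the pileup set over the genome mean and nothing added. The difference in median percentile rank was 19.2 by fold enrichment and -7.67 by −log10 q. For these changes the cause was not tested. The 25S site, whose alternatives were chosen after seeing the data, gave 1.90. It gave 1.86 over the local background with nothing added, 2.68 over the genome mean, and 1.60 to 2.19 with libraries left out. The 6 called genes and 9 merged regions stayed within 1.5 times of these counts under the planned thresholds and overlap rules. All 6 called genes rest on 14 d repeat 2. The planned motif search was not run, because no genome sequence was used here.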

Other observations

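Regions elsewhere in the genome with the same pattern over the 4 lists were ranked by how near their log2 fold enrichment in 14 d repeat 2 lay to that of the span. For the 25S region of the first unit, with 4.12, the nearest of 42 other regions present in all 4 lists lay beside DPI8 on chromosome X (3.98) and upstream of RPP2A on chromosome XV (3.89), which encodes a ribosomal stalk protein. The third nearest lay beside RPL1B on chromosome VII (4.53). At 16 h the log2 values were 2.55 and 3.97 at DPI8 and 2.40 and 3.30 at RPP2A in repeats 1 and 2. At RPL1B they were 2.55 and 4.75. In 14 d repeat 1 the values were 3.09 at DPI8, 3.02 at RPP2A and 2.26 at RPL1B.

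For the peak at RDN5-4, with 3.26, the nearest of 126 other regions found in 14 d repeat 2 alone lay beside SEC17 on chromosome II (3.11), which acts in vesicle fusion, YIL177C on chromosome IX (3.05) and FAA1 on chromosome XV (3.48), which encodes an acyl-CoA synthetase. The likeness is over 1 library.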
